A study of Cricetiscus sungorus with 16 samples.

Results

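The inhibin, activin and follistatin system was followed in the ovaries of young Siberian hamsters through 9 genes, listed by their transcript identifiers. The 3 subunit genes are Inha (NM_010564), Inhba (NM_008380) and Inhbb (NM_008381). The 3 follistatin genes are Fst (NM_008046), Fstl1 (NM_008047) and Fstl3 (NM_031380), and the 3 receptor genes are Acvr1 (NM_007394), Acvr2a (NM_007396) and Acvr2b (NM_007397). All 9 identifiers were on the array, out of 33272, and they carried 12 probes. After a filter on dim probes, 8 of the 9 were tested, out of 20143 identifiers tested in all.

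Inhibins and activins are dimers of the TGF-beta family that share their beta subunits. An alpha subunit joined to a beta subunit makes inhibin, which granulosa cells of growing follicles secrete and which lowers the release of follicle-stimulating hormone from the pituitary. A pair of beta subunits makes activin, which raises that release and also acts within the ovary through type II and type I receptors. Follistatin binds activin and keeps it from its receptors.

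The animals were female hamsters gestated and raised in short days (SD, 10 h of light) or long days (LD, 16 h of light), with ovaries taken at 8 wk or 3 wk of age. There were 4 groups, SD at 8 wk, LD at 8 wk, SD at 3 wk and LD at 3 wk, each with 4 hamsters and 1 array per hamster, and RNA came from both ovaries of an animal. The submitters' design compares the day lengths at each age and the ages in each day length. For the SD group at 8 wk the labels conflict, with 16 h of light in the title and treatment fields beside the letters SD and 10 h in the description. The description was followed, so the group counts here as SD, and no other source was at hand to settle it.

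The arrays carry mouse probes and the RNA was from hamster, so every value is the signal of a mouse probe, and cross-hybridisation was not tested. Levels are log2 of the processed intensity relative to the 75th percentile of the same array, so a level of 0 lies at that percentile and a difference of 1 is a 2-fold change. The share of probes with signal well above background was 58.0% to 75.7% per array, and the 75th percentile lay between 269 and 1007, lowest on slide 1. The 16 arrays lay on 4 slides, each with 1 array of every group, and replicates 1 to 4, in which order array values are given, are slides 1 to 4. The groups kept fixed positions on every slide, so position and group cannot be told apart. The labelled tissue was not checked against marker genes, because identifiers were not paired with symbols here. In RNA from whole ovaries, fewer cells of a type and less RNA per cell cannot be told apart.

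All 3 subunit genes had their lowest group mean in SD ovaries at 8 wk. Inhba and the brighter of the 2 Inhbb probes were 19.1-fold and 8.80-fold lower in SD than in LD ovaries of that age and passed the test. The Inhba call was close to the threshold without slide in the fit (limma adjusted p = 0.0483) and was made in 8 of 31 alternative fits. Of these alternatives, 16 left out 1 array each from the fit without slide. With slide as a block the adjusted p was 0.00382. The dimmer Inhbb probe was 1.64-fold lower and also passed. The brighter of the 2 Inha probes was 1.88-fold lower and passed the test with slide in the fit but not without. Fst was lower at 8 wk than at 3 wk, by 2.50-fold in SD and by 2.69-fold in LD ovaries, and did not pass the test between day lengths at either age. None of the 3 receptor genes passed the test in any comparison. For all 3 subunit genes, replicate 4 of the SD group at 8 wk was the highest of its group, and the subunit and Fst differences that rest on this group are given with and without it. Leaving out the highest array of the lowest group makes the subunit differences larger by construction, so a pass without it adds no support. The fit pools the spread of all 4 groups, so the intervals of comparisons without this group also depend on this array. The median absolute deviation of this array from the rest of its group was 0.16, within the range of 0.10 to 0.25 over the 16 arrays. It was the highest of its group, where replicates 1 to 3 had 0.15, 0.14 and 0.11, and 0.25 was reached by the LD arrays of slide 1. This deviation was taken over the tested identifiers measured on every array, with the mean of each slide removed. On this array 58.4% of probes had signal well above background, against 63.6% to 69% on the other arrays of slides 3 and 4. Slide 1 arrays had 58% to 60.2%. Whether this share bears on the subunit levels was not tested.

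**Figure D1:**
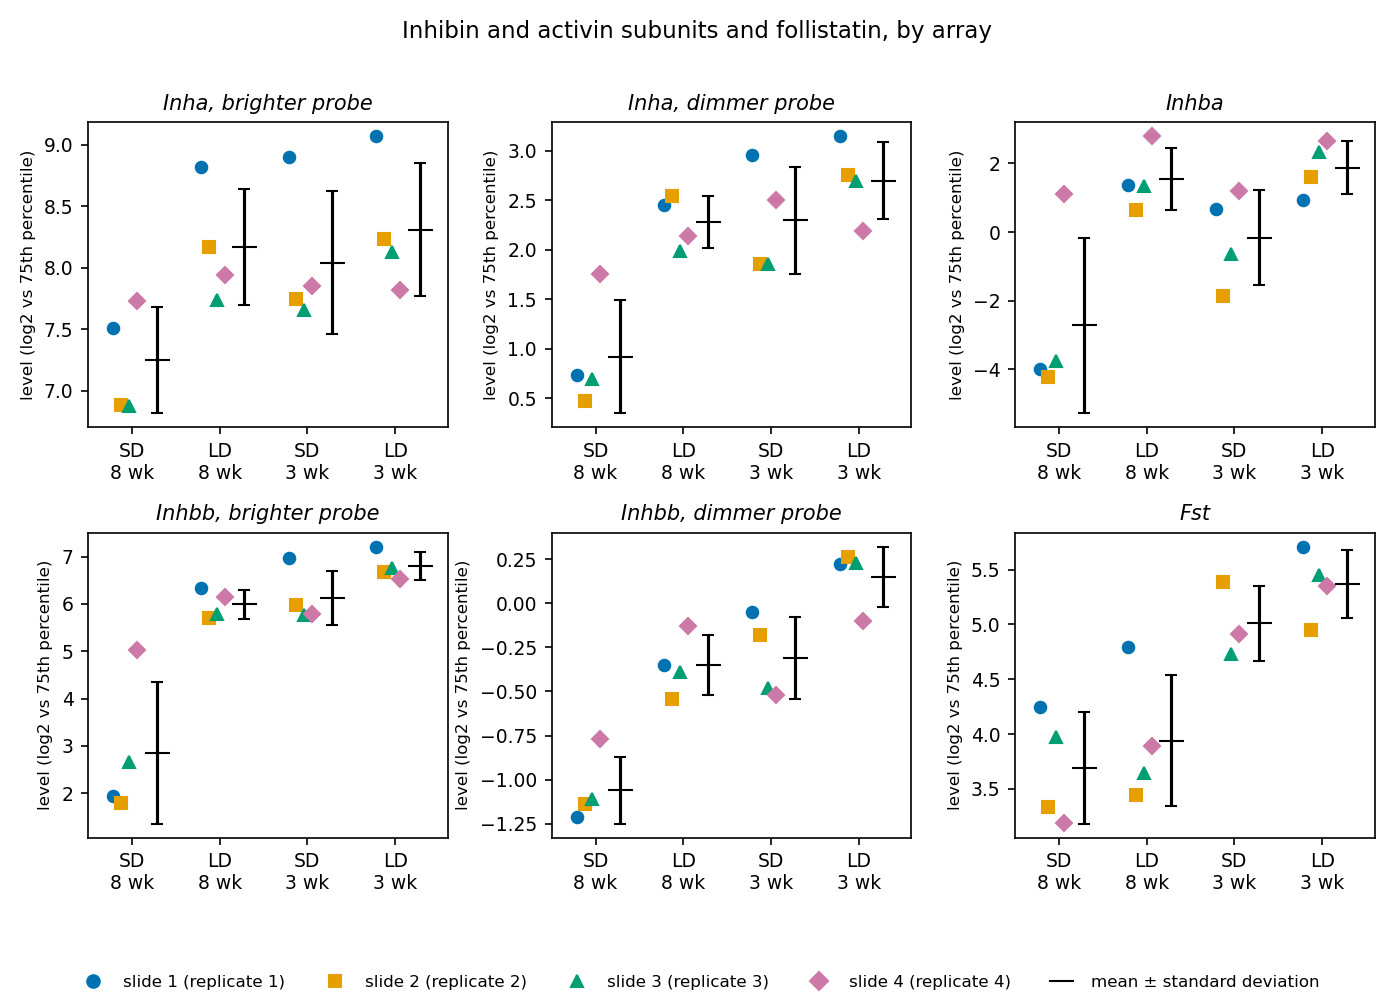
Levels of Inha (2 probes), Inhba, Inhbb (2 probes) and Fst on each array, as log2 relative to the array's 75th percentile, with SD at 8 wk on the left, then LD at 8 wk, SD at 3 wk and LD at 3 wk. Symbols mark slides, and bars are the mean and standard deviation of a group; 3 of the 4 Inhba arrays of SD ovaries at 8 wk lie between −4.22 and −3.76, and the fourth is at 1.11.

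Inhba encodes the beta A subunit, shared by inhibin A and activin A. Its probe gave levels of −4.00, −4.22, −3.76 and 1.11 in SD ovaries at 8 wk, against 1.37, 0.65, 1.34 and 2.80 in LD ovaries at 8 wk. In the 3-wk groups it gave 0.68, −1.87, −0.64 and 1.21 in SD ovaries, against 0.93, 1.60, 2.34 and 2.65 in LD ovaries. Of the 4 SD arrays at 8 wk, 3 lay below every array of the other groups, while replicate 4 lay above 1 of the LD arrays of that age, so the groups overlapped. The SD ovaries at 3 wk also spread widely, over 3.07 log2 units.

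The group means of Inhba were −2.72 ± 2.56 in 8-wk SD ovaries, 1.54 ± 0.90 in 8-wk LD ovaries, −0.16 ± 1.38 in 3-wk SD ovaries and 1.88 ± 0.77 in 3-wk LD ovaries (± standard deviation of log2 levels, n = 4 each). In order of mean, LD at 3 wk was followed by LD at 8 wk, SD at 3 wk and SD at 8 wk, and each group overlapped the next in this order. At 8 wk the SD minus LD difference was −4.26, with a standard error of 0.97 and a limma adjusted p of 0.0483. Of all 20143 identifiers tested, 1 had a lower difference in this comparison. The adjusted p stood close to the threshold of 0.05, and the call was made in 8 of 31 alternative fits, with adjusted p between 0.000292 and 0.281. The processed intensities behind the SD levels at 8 wk were 22.8, 41.7, 68.9 and 1911, and with normexp background correction, which adds an offset of 50, the difference was −3.25 (adjusted p = 0.0712).

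The same Inhba difference taken within slides 1 to 4 was −5.37, −4.87, −5.10 and −1.68, below 0 on all 4. With slide as a block the difference of −4.26 had a standard error of 0.65 and a limma adjusted p of 0.00382. Without the block and without replicate 4 of the SD group at 8 wk, it was −5.53 with an adjusted p of 0.000292. The call of the fit without the block depended on single arrays. It was kept without that array and without SD replicate 2 at 3 wk (adjusted p = 0.0462). It was lost on leaving out any of the other 14, with differences between −4.55 and −3.76. The highest adjusted p, 0.208, came without SD replicate 2 at 8 wk.

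At 3 wk the SD minus LD difference of Inhba was −2.04, with a 95% interval of −4.09 to 0.02 and an unadjusted limma p of 0.0517, which was 1 after adjustment. Within slides it was −0.25, −3.47, −2.98 and −1.44. The interval of this difference rests on the pooled spread of all 4 groups. Without replicate 4 of the SD group at 8 wk, over all probes, the standard error was 0.59 and the unadjusted limma p 0.00356. After adjustment the difference did not pass there either. Between ages, SD ovaries were 2.56 log2 units lower at 8 wk than at 3 wk (log2 difference −2.56, standard error 0.97, limma adjusted p = 0.126), a difference that passed the test with slide as a block (adjusted p = 0.013). It was −3.84 without replicate 4 of the SD group at 8 wk, singled out on these same levels, and passed the test there (adjusted p = 0.00176). With normexp the age difference was −1.69 (adjusted p = 0.258). In LD ovaries the age difference was −0.34, with a 95% interval of −2.39 to 1.71.

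Inhbb encodes the beta B subunit, shared by inhibin B and activin B. Its brighter probe gave levels of 1.93, 1.79, 2.66 and 5.03 in SD ovaries at 8 wk, against 6.33, 5.71, 5.78 and 6.14 in LD ovaries at 8 wk. In the 3-wk groups it gave 6.97, 5.97, 5.77 and 5.78 in SD ovaries, against 7.21, 6.68, 6.77 and 6.53 in LD ovaries. All 4 SD arrays at 8 wk lay below all 12 arrays of the other groups, with replicate 4 the nearest to them. The LD ovaries at 8 wk overlapped the SD ovaries at 3 wk and lay below the LD ovaries at 3 wk.

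The group means of this Inhbb probe were 2.85 ± 1.50 in 8-wk SD ovaries, 5.99 ± 0.30 in 8-wk LD ovaries, 6.12 ± 0.57 in 3-wk SD ovaries and 6.80 ± 0.30 in 3-wk LD ovaries (± standard deviation, n = 4 each). In order of mean, LD at 3 wk was followed by SD at 3 wk, LD at 8 wk and SD at 8 wk, and of these neighbours only the last pair did not overlap. At 8 wk the SD minus LD difference was −3.14, with a standard error of 0.52 and a limma adjusted p of 0.00537. Within slides the difference was −4.40, −3.92, −3.12 and −1.11, and without replicate 4 of the SD group at 8 wk the fit gave −3.86 (adjusted p = 8.77e-06). The call held on leaving out any single array, with adjusted p at most 0.0263, and was lost in a fit of these 2 groups alone (adjusted p = 0.0837), without slide 1 (−2.72, adjusted p = 0.053) and on slides 3 and 4 alone, which were scanned on the same day (−2.11, adjusted p = 0.274).

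The age change of Inhbb in SD ovaries was −3.27, a 9.64-fold lower signal at 8 wk, with a standard error of 0.52 and a limma adjusted p of 0.000851. Of all identifiers tested, 1 had a lower value in this comparison. Within slides the change was −5.04, −4.18, −3.11 and −0.75, and without replicate 4 at 8 wk the fit gave −3.99 (adjusted p = 2.77e-06). On slides 3 and 4 alone the change was −1.93 and did not pass (adjusted p = 0.117). In LD ovaries the age change was −0.81, with a 95% interval of −1.91 to 0.29 and an adjusted p of 0.593. It was below 0 on all 4 slides, between −0.99 and −0.39. Its standard error pools the spread of all 4 groups, and in a fit of the LD groups alone it fell from 0.52 to 0.21 (limma adjusted p = 0.107). The SD minus LD difference at 3 wk was −0.68 on the brighter probe, with a 95% interval of −1.78 to 0.42. It was below 0 on all 4 slides. In a fit of the 3-wk groups alone its standard error was 0.28, and it did not pass there either.

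The dimmer Inhbb probe gave a narrower range in the same direction. It stood at −1.21, −1.14, −1.11 and −0.77 in SD ovaries at 8 wk, against −0.35, −0.54, −0.39 and −0.13 in LD ovaries at 8 wk. At 3 wk it stood at −0.05, −0.18, −0.48 and −0.52 in SD ovaries, against 0.22, 0.26, 0.23 and −0.10 in LD ovaries. Again the 4 SD arrays at 8 wk lay below the other 12, with replicate 4 the nearest to them. Fitted over all probes past the filter, its SD minus LD difference at 8 wk was −0.71 (standard error 0.15, limma adjusted p = 0.036) and its age change in SD ovaries −0.75 (standard error 0.15, adjusted p = 0.00529). Without replicate 4 of the SD group at 8 wk the difference between day lengths was −0.81 and the age change −0.85, and both passed (adjusted p = 0.0185 and 0.00413). In LD ovaries its age change was −0.50 (adjusted p = 0.0994), which passed with slide as a block (adjusted p = 0.0436).

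Inha encodes the alpha subunit, which is found in inhibins and not in activins. Its brighter probe gave levels of 7.51, 6.89, 6.88 and 7.73 in SD ovaries at 8 wk, against 8.82, 8.17, 7.74 and 7.94 in LD ovaries at 8 wk. In the 3-wk groups it gave 8.90, 7.75, 7.66 and 7.85 in SD ovaries, against 9.07, 8.23, 8.13 and 7.82 in LD ovaries. Slide 1 had the highest value of each group but SD at 8 wk, where replicate 4 was highest. The SD ovaries at 8 wk lay below the LD ovaries at 8 wk with no overlap, though the highest SD array, at 7.73, and the lowest LD array, at 7.74, were nearly level.

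The group means of this Inha probe were 7.25 ± 0.43 in 8-wk SD ovaries, 8.17 ± 0.47 in 8-wk LD ovaries, 8.04 ± 0.58 in 3-wk SD ovaries and 8.31 ± 0.54 in 3-wk LD ovaries (± standard deviation, n = 4 each). The SD minus LD difference at 8 wk was −0.91, with a standard error of 0.33 and a limma adjusted p of 0.387. Within slides it was −1.31, −1.28, −0.85 and −0.21, and with slide as a block it passed the test (standard error 0.19, adjusted p = 0.0211). The age change in SD ovaries was −0.79 (adjusted p = 0.177), between −1.39 and −0.11 within slides, and it too passed with the block (adjusted p = 0.00909). Both also passed without the block under quantile normalization, at −0.78 (adjusted p = 0.0176) and −0.71 (adjusted p = 0.0065). Without replicate 4 of the SD group at 8 wk the differences were −1.07 between day lengths and −0.95 between ages in the fit without the block, and neither passed (adjusted p = 0.259 and 0.137).

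The dimmer Inha probe separated the groups further. It stood at 0.74, 0.47, 0.70 and 1.76 in SD ovaries at 8 wk, against 2.45, 2.54, 1.99 and 2.14 in LD ovaries at 8 wk. At 3 wk it stood at 2.96, 1.86, 1.86 and 2.50 in SD ovaries, against 3.15, 2.76, 2.70 and 2.19 in LD ovaries. All 4 SD arrays at 8 wk lay below all 12 others. In the fit over all probes its SD minus LD difference at 8 wk was −1.36 (standard error 0.30, limma adjusted p = 0.0377), and its age change in SD ovaries was −1.38 (standard error 0.30, adjusted p = 0.00802). Without replicate 4 of the SD group at 8 wk they were −1.64 between day lengths and −1.66 between ages, and both passed (adjusted p = 0.00507 and 0.00162). Both probes of Inha therefore had negative values in these comparisons, and which of them passed without the block differed.

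For the LD age change and for SD minus LD at 3 wk, neither Inha probe passed the test. The LD age change was −0.14 on the brighter probe (95% interval −0.84 to 0.56) and −0.42 on the dimmer one (−1.05 to 0.21). The SD minus LD difference at 3 wk was −0.27 (95% interval −0.97 to 0.43) and −0.41 (−1.04 to 0.22).

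**Figure D2:**
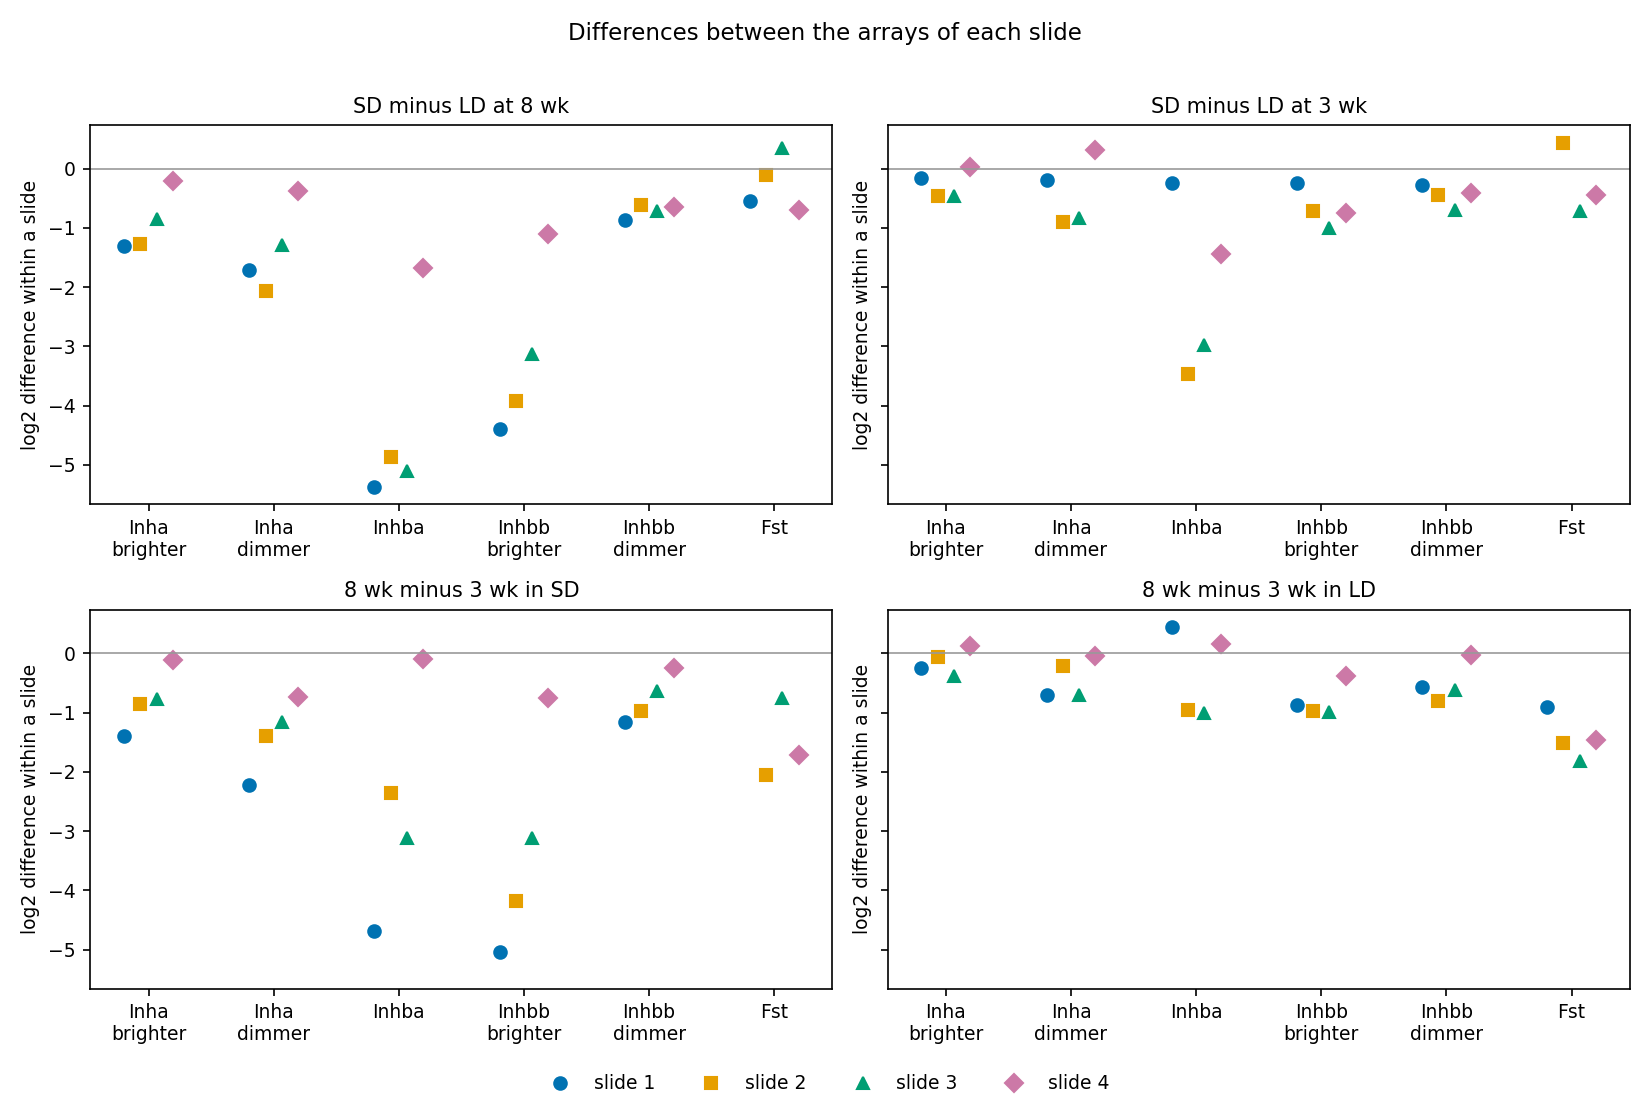
Log2 differences between the arrays of the same slide, for SD minus LD at 8 wk and at 3 wk (upper panels) and for 8 wk minus 3 wk in SD and in LD ovaries (lower panels), with 1 symbol per slide and the line at 0. For Inhba and the brighter probes of Inha and Inhbb at 8 wk, SD minus LD is below 0 on all 4 slides and nearest to 0 on slide 4; Fst has no value on slide 1 in the comparisons with SD at 3 wk.

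Fst encodes follistatin, the extracellular antagonist that binds activin with high affinity. Its probe gave levels of 4.25, 3.33, 3.97 and 3.19 in SD ovaries at 8 wk, against 4.79, 3.44, 3.64 and 3.89 in LD ovaries at 8 wk. In the 3-wk groups it gave 5.39, 4.73 and 4.91 in replicates 2 to 4 of SD ovaries, against 5.71, 4.95, 5.45 and 5.35 in LD ovaries. The spot on SD replicate 1 at 3 wk was marked as an outlier in the scanner file and left out of the fit, and its level would have been 5.03. In each day length every 8-wk array lay below every 3-wk array, whereas the day lengths overlapped at both ages.

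The group means of Fst were 3.69 ± 0.51 in 8-wk SD ovaries, 3.94 ± 0.60 in 8-wk LD ovaries, 5.01 ± 0.34 in 3-wk SD ovaries (n = 3) and 5.37 ± 0.31 in 3-wk LD ovaries (± standard deviation, n = 4 in the other groups). In order of mean, LD at 3 wk was followed by SD at 3 wk, LD at 8 wk and SD at 8 wk, with overlap between the day lengths at each age. In SD ovaries the age change was −1.32, with a standard error of 0.32 and a limma adjusted p of 0.0177. It was −2.06, −0.76 and −1.72 on slides 2 to 4, and −1.52 with slide as a block (adjusted p = 0.000788). In the fit without the block, the call was lost without SD replicate 2 at 3 wk (−1.14, adjusted p = 0.0938). It was also lost there without SD replicate 2 at 8 wk (−1.21, adjusted p = 0.059) and without SD replicate 4 at 8 wk (−1.16, adjusted p = 0.0527).

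In LD ovaries the age change of Fst was −1.43, with a standard error of 0.30 and a limma adjusted p of 0.0181, and −0.91, −1.52, −1.81 and −1.46 within slides 1 to 4. With slide as a block the adjusted p was 0.00187. In the fit without the block, the call was lost on leaving out LD replicate 1 (adjusted p = 0.0533) or 4 (0.0601) at 3 wk. It was also lost there on leaving out LD replicate 2, 3 or 4 at 8 wk (0.063, 0.0595 and 0.0532). The changes in these fits lay between −1.43 and −1.26. The SD minus LD difference was −0.25 at 8 wk, with a 95% interval of −0.89 to 0.38 (−0.09 without SD replicate 4), and −0.36 at 3 wk, with an interval of −1.05 to 0.33. The difference between the SD and the LD age change was 0.10, with a 95% interval of −0.84 to 1.04, and 0.27 without SD replicate 4 at 8 wk.

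Fstl3 encodes a follistatin-like glycoprotein that also binds activin. Its levels were 3.11, 2.72, 2.23 and 2.45 in SD ovaries at 8 wk, against 3.58, 2.72, 2.39 and 2.64 in LD ovaries at 8 wk. At 3 wk they were 2.77, 2.51, 2.10 and 2.32 in SD ovaries, against 2.94, 2.54, 2.25 and 2.21 in LD ovaries. The groups overlapped in every comparison, and slide 1 had the highest value in each group. The LD age change was 0.34, higher at 8 wk on all 4 slides by 0.14 to 0.64, with a limma adjusted p of 0.678 without the block and 0.0483 with it. The SD age change was 0.20, between 0.13 and 0.34 within slides, and did not pass (adjusted p = 0.791, and 0.197 with the block).

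Fstl1 encodes a secreted follistatin-like glycoprotein. Its probe was not well above background on any of the 16 arrays, and its levels, between −7.87 and −5.52, have no use as measurements. It was left out of the tests.

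The receptor genes varied little. Acvr1, a type I receptor that also takes part in bone morphogenetic protein signalling, had levels between 1.93 and 2.48 on the 15 arrays in the fit; its spot on LD replicate 1 at 3 wk was marked as an outlier, and the level there would have been 2.32. Group means of Acvr1 were 2.26 ± 0.07 in 8-wk SD ovaries, 2.33 ± 0.15 in 8-wk LD ovaries, 2.09 ± 0.13 in 3-wk SD ovaries and 2.32 ± 0.08 in 3-wk LD ovaries (± standard deviation, n = 3 in the last group and 4 in the others). At 3 wk the SD arrays, at 2.15, 2.05, 2.23 and 1.93, lay below the LD arrays, at 2.28, 2.41 and 2.27 in replicates 2 to 4. The difference there was −0.23, with a 95% interval of −0.51 to 0.05, and it did not pass the test.

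Acvr2a and Acvr2b encode the type II receptors that bind activin directly. Acvr2a means were 0.36 ± 0.31 in 8-wk SD ovaries, 0.32 ± 0.32 in 8-wk LD ovaries, 0.40 ± 0.33 in 3-wk SD ovaries and 0.31 ± 0.21 in 3-wk LD ovaries, on the brighter of its 2 probes (± standard deviation, n = 4 each). Its dimmer probe was not well above background on any array. Acvr2b means were −2.04 ± 0.14 in 8-wk SD ovaries, −2.09 ± 0.30 in 8-wk LD ovaries, −1.86 ± 0.09 in 3-wk SD ovaries and −1.78 ± 0.35 in 3-wk LD ovaries (n = 4 each). For SD minus LD at 8 wk, the 95% intervals ran from −0.39 to 0.48 for Acvr2a, from −0.34 to 0.43 for Acvr2b and from −0.33 to 0.19 for Acvr1. The widest receptor difference of any pairwise comparison was the LD age change of Acvr2b, at −0.31 (95% interval −0.69 to 0.08), which did not pass.

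**Figure D3:**
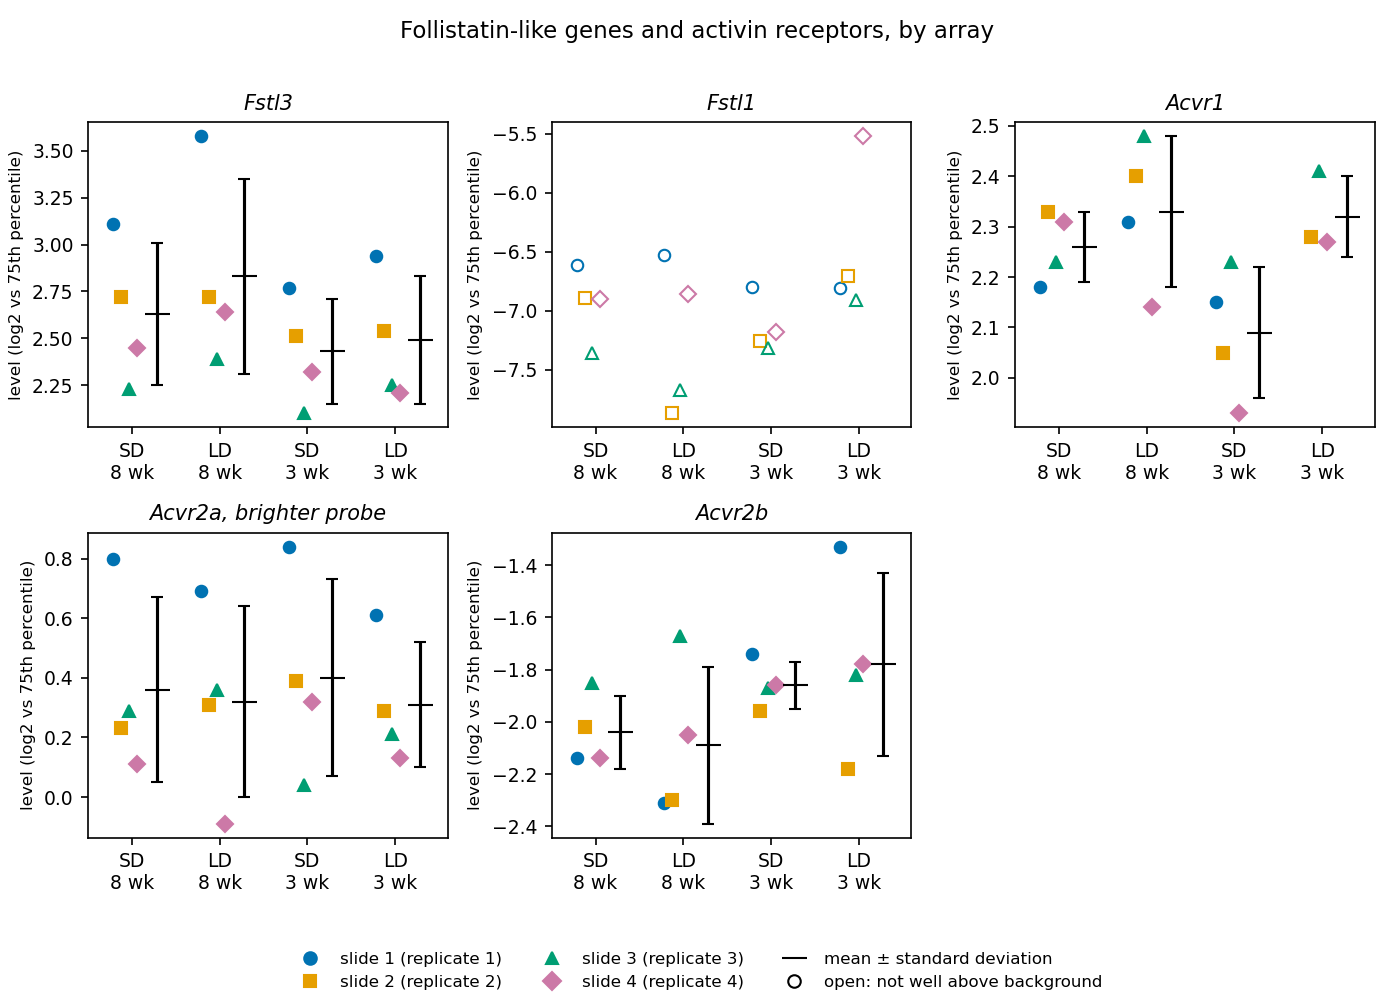
Levels of Fstl3, Fstl1, Acvr1, Acvr2a (brighter probe) and Acvr2b on each array, as log2 relative to the array's 75th percentile, with SD at 8 wk on the left, then LD at 8 wk, SD at 3 wk and LD at 3 wk; bars are the mean and standard deviation. Open symbols mark spots not well above background, which all 16 of Fstl1 are, and the vertical scales differ between panels.

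Counted over the system, 2 of the 8 tested genes were called lower for SD minus LD at 8 wk by limma, against 0.223% of all tested identifiers, and 3 of 8 with slide as a block, against 0.804%. The genes were chosen with earlier results of these data known, so these shares are no test of the system. The 2 called genes, Inhba and Inhbb, had similar profiles over the arrays and are not independent. The 8 genes had a median difference of −0.23 and all identifiers one of −0.01. For 8 wk minus 3 wk in SD ovaries, 2 of 8 were called lower, against 4.38% of all identifiers, and 4 of 8 with the block, against 12.2%, with medians of −0.48 and 0. For 8 wk minus 3 wk in LD ovaries, 1 of 8 was called lower, against 1.78%. With the block, 1 of 8 was called lower there, against 7.96%, and 1 of 8 higher, against 3.93%, and the medians without it were −0.23 for the 8 genes and −0.04 for all.

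At 3 wk no tested gene of the system was called for SD minus LD by limma, and 0% of all identifiers were. At an unadjusted p under 0.05 the count was 0 of the 8 genes and 330 of the 20143 identifiers (1.64%), and with slide as a block it was 2 of the 8 genes and 6.44% of all identifiers. These counts take the brightest probe of each gene and the pooled spread of all 4 groups. Medians were −0.25 for the 8 genes and −0.05 for all identifiers. These comparisons share arrays with one another and are not independent.

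**Figure D4:**
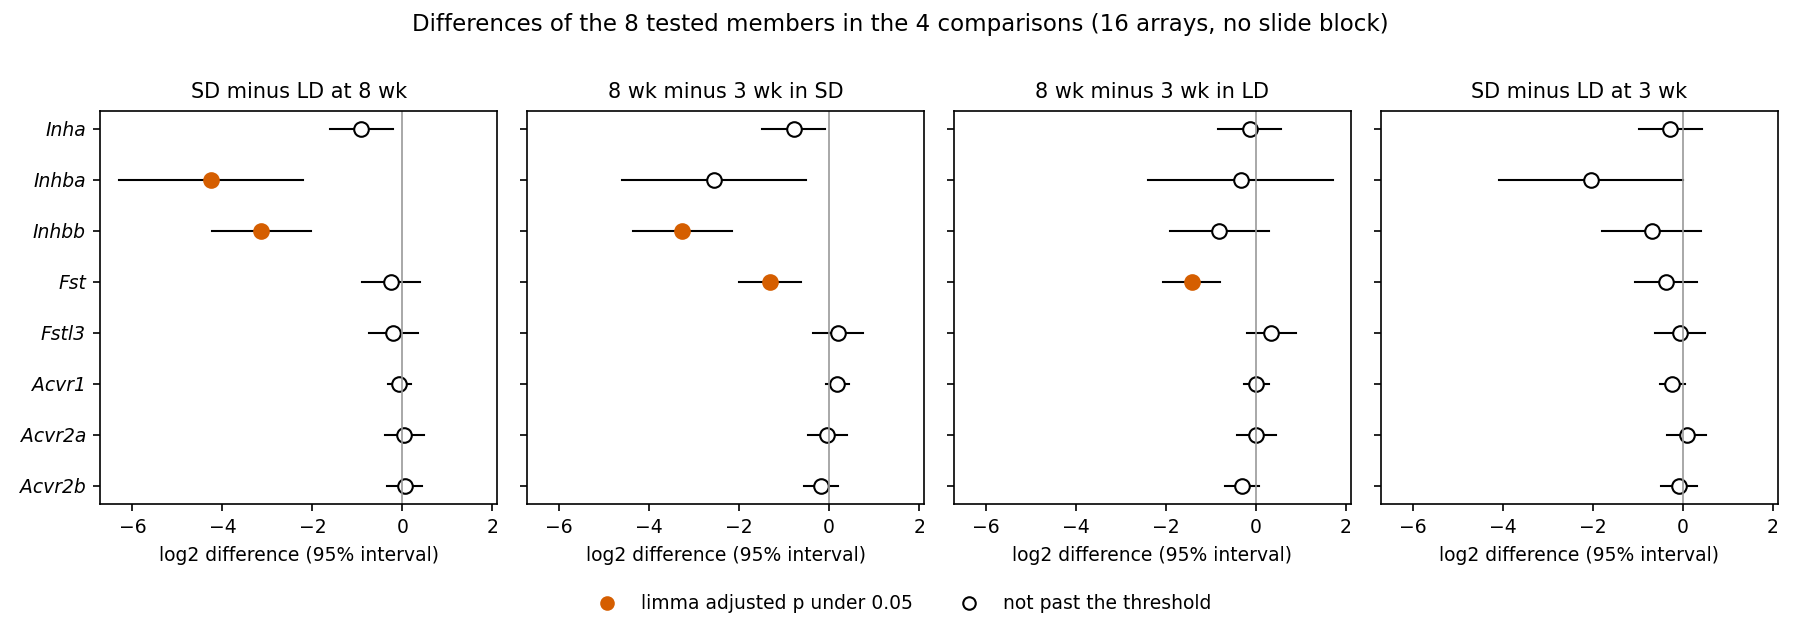
Log2 differences (points) with 95% intervals (lines) of the 8 tested genes in the limma fit without the slide block, in 4 panels for SD minus LD at 8 wk, 8 wk minus 3 wk in SD, 8 wk minus 3 wk in LD, and SD minus LD at 3 wk. Filled points passed an adjusted p of 0.05: Inhba and Inhbb in the first panel, Inhbb and Fst in the second, Fst in the third and none in the last.

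Whether the age change differed between day lengths was tested as an interaction, in which the change in LD ovaries is subtracted from that in SD ovaries. No gene of the system was called by limma, against 0.0596% of all identifiers, and at an unadjusted p under 0.05 the count was 1 of 8, against 3.05% of all identifiers, or 3 of 8 with slide as a block, against 8.50%. Without the block that gene was Inhbb, with an interaction of −2.46, a standard error of 0.73 and an adjusted p of 0.688. Without replicate 4 of the SD group at 8 wk, singled out on these same levels, it was −3.19 and passed (adjusted p = 0.00304). These values are of the brighter Inhbb probe. On the dimmer Inhbb probe the interaction was −0.25 (95% interval −0.71 to 0.21), and −0.35 without that array, and neither passed. The interaction was −2.22 for Inhba, with a 95% interval of −5.12 to 0.68, and −0.64 for Inha, with an interval of −1.63 to 0.35. Without that array it was −3.50 for Inhba and −0.80 for Inha, and neither passed (adjusted p = 0.208 and 1). The dimmer Inha probe gave −0.96 (95% interval −1.85 to −0.07), and −1.24 without that array, and neither passed. For the receptors the interaction lay between −0.05 and 0.16.

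With the mean of each slide removed, the 3 subunit genes had similar profiles over the 16 arrays. Pearson's r was 0.970 between Inha and Inhbb, 0.948 between Inha and Inhba, and 0.914 between Inhba and Inhbb, as a description of arrays that share slides and groups. Over the 12 arrays outside the SD group at 8 wk, these were 0.635, 0.794 and 0.516. With Fst, over the 15 arrays with a value of it, r was 0.482 for Inha, 0.392 for Inhba and 0.626 for Inhbb. Over the 11 of these outside the SD group at 8 wk, r with Fst was 0.0228 for Inha, −0.203 for Inhba and 0.632 for Inhbb.

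Among the 18648 identifiers measured on every array, those most like Inha were NM_011825 (r = 0.976) and Inhbb. The identifiers most like Inhba were NM_011825 (r = 0.982) and Inha. Inhbb was most like Inha and NM_011626 (r = 0.969), and Fst was most like NM_011856 (r = 0.963) and NM_172918 (r = 0.958), both over 15 arrays. The level of NM_011825 averaged 0.66 in 8-wk SD ovaries, 3.93 in 8-wk LD ovaries, 3.13 in 3-wk SD ovaries and 4.32 in 3-wk LD ovaries, the same order of group means as Inhba and as the brighter Inha probe.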

How the data were processed

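Per the labels' protocols, ovary RNA (both ovaries, 1 hamster per sample) was amplified and Cy3-labelled for 1-colour Agilent mouse arrays, and per the file headers spots were extracted with Agilent Feature Extraction 10.5.1.1. The values used were the processed intensity per spot in the deposited scanner output, linear and without normalization between arrays, with flags for outlier spots and signal well above background. The value table that the authors deposited repeats these intensity values in rounded form: 4 of 694064 cells differed by more than 0.5%, and its column medians ran from 26.6 to 91.5.

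Control spots and spots marked as outliers were left out, spots of a probe averaged, and the log2 of the intensity taken minus each array's 75th percentile. A probe was required to exceed background clearly on the 4 arrays of 1 group or more and to be measured on at least 12 arrays and 2 per group and slide, as 24617 of 41174 probes were. The brightest probe stood for an identifier. No spot was saturated. The limma package 3.58.1 (R 4.3.3; lmFit, eBayes with intensity trend) was run over all 16 arrays and 20143 identifiers, with Benjamini-Hochberg adjustment and a threshold of 0.05. Other probes were tested in the same way over all probes past the filter. The fit was tested on simulated data with independent noise and no slide effect. That test cannot show how the fit without the block behaves where arrays of a slide are correlated.

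Groups came from the sample descriptions, and each sample has its own animal code. Replicate numbers are slide numbers. Deviations from group means were correlated between arrays sharing a slide in each of 24 pairs (median r = 0.451, lowest 0.224; −0.113 between slides), so the fit with slide as a replicate block is given where it changes a call. There were 3 scan days, and slides 3 and 4 share one.

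The 9 genes were chosen as members of the system, all are reported with every probe, and for 4 of them the 2 identifiers with the most similar profile are named. Members and lists were chosen with earlier results of these data known. Gene names come from that list, since the array files give identifiers alone. Lists of other pathway genes and of cell type markers could not be matched to identifiers and were not used. As alternatives, the scaling, background correction, dim-probe filter, choice of probe, trend, weights per array, slide block, fitted groups and value table were varied, and arrays were left out. The number of arrays limits the precision.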

Additional observations from a re-analysis of the deposited data

Results flagged for a closer look

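Within groups of 4 arrays, 38 were examined for an array far from the other 3, and 4 were found, where chance gives about 1 in 20. Inhba stood at 1.11 in SD replicate 4 at 8 wk, and the nearest array of that group was at −3.76. In SD replicate 1 at 3 wk the brighter Inha probe stood at 8.90, with the nearest at 7.85, and the brighter Inhbb probe at 6.97, with the nearest at 5.97. The dimmer Inhbb probe stood at −0.10 in LD replicate 4 at 3 wk, with the nearest at 0.22. Slide 1, which held SD replicate 1 at 3 wk, had the lowest 75th percentiles, and the part of slide in these values was not tested apart from the slide block.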

How the results depend on the processing

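Over 31 alternatives no called difference changed sign, and of the 1058 values called neither as reported nor under the alternative 52 did, all of them of differences whose reported size was at most 0.25. For SD minus LD at 8 wk, 2 of 8 genes were called, and 1 with median scaling, normexp background correction, no filter on dim probes, the mean of all probes or no intensity trend. There were 0 in a fit of only the groups compared, without slide 1, and on scan day 3 alone with the replicate block. With slide as a replicate block there were 3. Quantile normalization kept the count at 2, but Inha passed (limma adjusted p = 0.0176) and Inhba did not (0.0507). For 8 wk minus 3 wk in LD ovaries, 1 was called, 0 with only the groups compared, and 2 with slide as a replicate block, with or without replicate 4 of both 8-wk groups. For 8 wk minus 3 wk in SD ovaries, 2 were called, 4 with either of these blocks, and 1 on scan day 3 alone. With quantile normalization or the mean of all probes, 3 were called there. For the interaction 0 were called, and 1 with the block and without replicate 4 of both 8-wk groups. Leaving out each array in turn, without the block, gave 1 to 2 calls for SD minus LD at 8 wk and 0 to 1 for the LD age change. It gave 1 to 2 for the SD age change and 0 to 1 for the interaction. At 3 wk the count stayed at 0 in all alternatives.

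Over all identifiers, the calls were 193 for SD minus LD at 8 wk (24 to 531), 601 for the LD age change (220 to 2394), 1844 for the SD age change (1075 to 4655), 12 for the interaction (4 to 80) and 0 at 3 wk (0 to 4). The call of Inhbb was made in 28 of 31 alternatives for SD minus LD at 8 wk and in 30 for the SD age change, and that of Fst in 25 for the LD and 28 for the SD age change. The cause of the lost calls was not tested, other than that fits of fewer arrays or groups have fewer degrees of freedom. Inha has no normexp value, since its brightest probe lacked enough spots without a background flag, and the interaction cannot be fitted on 2 groups. Fits with outlier spots kept, on scan day 3 alone, with normexp fitted on unmarked spots, with the block without replicate 4 at 8 wk, and of all probes without SD replicate 4 at 8 wk were chosen after seeing the data.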
